A study of Sus scrofa with 9 samples.

Results

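The genes described are 10 proteoglycans of the vessel wall: lumican (LUM), decorin (DCN), biglycan (BGN), asporin (ASPN), osteoglycin (OGN, also called mimecan), fibromodulin (FMOD), prolargin (PRELP), versican (VCAN), aggrecan (ACAN) and perlecan (HSPG2). They are the genes of the deposited table that carry these names. Each name had 1 entry, so the set is 10 of 21357 genes, and all 10 passed the filter on low values in each of the 3 comparisons.

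Proteoglycans are proteins that carry long sulfated sugar chains. Those described here are secreted, and ASPN is listed with them though it is not known to carry such chains. The small leucine-rich proteoglycans LUM, DCN, BGN, ASPN, OGN, FMOD and PRELP are known to bind collagen and to shape how collagen fibrils form and pack. VCAN and ACAN bind hyaluronan and hold water in the matrix, and HSPG2 is a heparan sulfate proteoglycan of basement membranes, such as those around smooth muscle cells and under the endothelium. In arteries, the sulfated chains of several of these proteins are known to bind apolipoprotein B-containing lipoproteins, which is why they are studied in atherosclerosis.

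RNA of the abdominal aorta of Tibetan minipigs, a small pig breed, was sequenced in 9 libraries, 3 in each of 3 groups. The NC group had a normal diet for 24 weeks, the H24 group (labelled atherosclerosis) a high-fat diet for 24 weeks and the H8 group (labelled hypercholesterolemia) a high-fat diet for 8 weeks. The pigs of NC and H24 were male, 3 to 4 months old on arrival and given 4 weeks to adapt before the diets began, and each library came from a different pig of its group. The diet of H24 was basal feed with shortening, cholesterol and egg yolk powder. H8 is known from its labels alone, which do not give the sex or age of its pigs or say whether its libraries came from separate pigs. No controls of 8 weeks were analysed here, so in H8 against NC the diet cannot be told apart from the length of the experiment and the age of the pigs. In H24 against H8, the length of the diet likewise cannot be told apart from the length of the experiment and the age. Both diet groups were compared with the same 3 NC libraries, and p-values measure the spread between these libraries.

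The libraries held 44094263 to 75787978 counts, and the 10 genes had 632 to 373629 counts in a library, far above the floor of 3 counts (0.0396 to 0.0680 CPM, counts scaled to depth). The tissue label was checked with contractile smooth muscle markers such as ACTA2 and MYH11, whose summed level was 12460 to 14866 FPKM in NC and 10994 to 14619 FPKM in H8. FPKM, the fragments of a gene per kilobase of transcript after scaling for depth, was used wherever levels of different genes are compared. The order of genes, their ranks and their shares therefore depend on the transcript length used for each entry. In H24 replicate 1, for example, LUM had 66665 counts and 145 FPKM, and DCN had 35787 counts and 341 FPKM. H24 replicate 3 stood apart from the other libraries. Its smooth muscle sum was 1867 FPKM against 8741 and 12505 in H24 replicates 1 and 2, and its leukocyte sum was 2875 FPKM against 393 and 257. The leukocyte sum was 30.8 to 48.5 FPKM in NC and 46.6 to 263 in H8. The correlation of log2 CPM across genes, which are not independent replicates, was 0.927 to 0.961 in the 8 pairs of libraries with H24 replicate 3 and 0.967 to 0.986 in the other 28 pairs. Results of H24 are therefore also given without this library. In whole tissue, fewer cells of a type and less RNA per cell cannot be told apart.

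In the deposited coordinates (Sscrofa11.1), DCN lies on chromosome 5 from 91678608 to 91713925 and LUM on the same strand from 91748494 to 91760563, with a gap of 34.6 kb and no other gene of the table between them. OGN (chromosome 3, 42116436 to 42135852) and ASPN (42163141 to 42192993) are separated by 27.3 kb with OMD between them. FMOD (chromosome 9, 64059853 to 64074106) and PRELP (64190982 to 64207001) lie on opposite strands, 116.9 kb apart with no gene of the table between. BGN lies on chromosome X from 124250338 to 124295446, ACAN on chromosome 7 from 54449588 to 54520153 and HSPG2 on chromosome 6 from 79850757 to 79921097.

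The entry named VCAN is not versican alone. It spans 523.7 kb of chromosome 2 (91287931 to 91811674), whereas RefSeq's VCAN covers 129.5 kb (91682177 to 91811674) of the same assembly. RefSeq places XRCC4, a gene of DNA double-strand break repair, at 91358348 to 91643697, wholly inside the entry. The deposited description of the entry is that of XRCC4, its 2 KEGG identifiers include 1 for each gene, and no other entry is named XRCC4. Another RefSeq coding gene inside the span, TMEM167A, has a described entry of its own on the opposite strand, which overlaps the VCAN entry by 34.4 kb. Fragments of VCAN and XRCC4 therefore cannot be told apart in this table, and all values printed for VCAN are those of the merged entry. The BGN entry is also longer than RefSeq's gene, 45.1 kb against 13.4 kb, and wholly holds a coding gene of RefSeq, LOC100623862 (chromosome X, 124266197 to 124274910), so that BGN values may include its fragments. A further overlap with a neighbouring entry was found for 3 of the genes: BGN an unnamed gene on the opposite strand by 7.8 kb, ACAN HAPLN3 on the opposite strand by 3.9 kb, and ASPN ECM2 on the same strand by 10.5 kb. Whether counting used strand is not given in the sources used here, so fragments in these overlaps may be split between the genes. The entries of LUM (12.1 kb against 7.5 kb), FMOD (14.3 against 10.9 kb) and ASPN (29.9 against 27.4 kb) were also longer than RefSeq's genes. That of HSPG2 was shorter, 70.3 kb against 108.6 kb. The effect of these differences on the FPKM was not tested.

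In the NC aorta, BGN had the highest FPKM of the 10 genes with 458 ± 77.0 FPKM (SD, n = 3), the 68th highest mean of all genes in the table. HSPG2 followed with 304 ± 54.6 FPKM, and then DCN with 207 ± 30.3, FMOD with 192 ± 24.3 and PRELP with 168 ± 23.1 FPKM. A gap separated these from OGN at 46.7 ± 16.5, ASPN at 20.9 ± 2.40 and LUM at 17.1 ± 1.93 FPKM. The lowest were VCAN at 5.52 ± 2.05 and ACAN, best known as the main proteoglycan of cartilage, at 3.19 ± 1.94 FPKM. Of the neighbours in this order, DCN and FMOD, FMOD and PRELP, ASPN and LUM, and VCAN and ACAN had overlapping ranges. In H8 the means followed the order BGN, DCN, PRELP, FMOD, HSPG2, OGN, LUM, ASPN, VCAN and ACAN, and only the steps from BGN to DCN, from HSPG2 to OGN and from ASPN to VCAN had ranges that did not overlap. In H24 the order of the means was BGN, FMOD, PRELP, HSPG2, DCN, LUM, VCAN, OGN, ASPN and ACAN, where the ranges of neighbours were apart only between BGN and FMOD and between LUM and VCAN. By its mean, LUM ranked 2501st among all genes in NC, 1632nd in H8 and 353rd in H24. The VCAN entry ranked 6207th, 4862nd and 1355th, and OGN went from 835th to 1468th and 2400th.

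**Figure D1:**
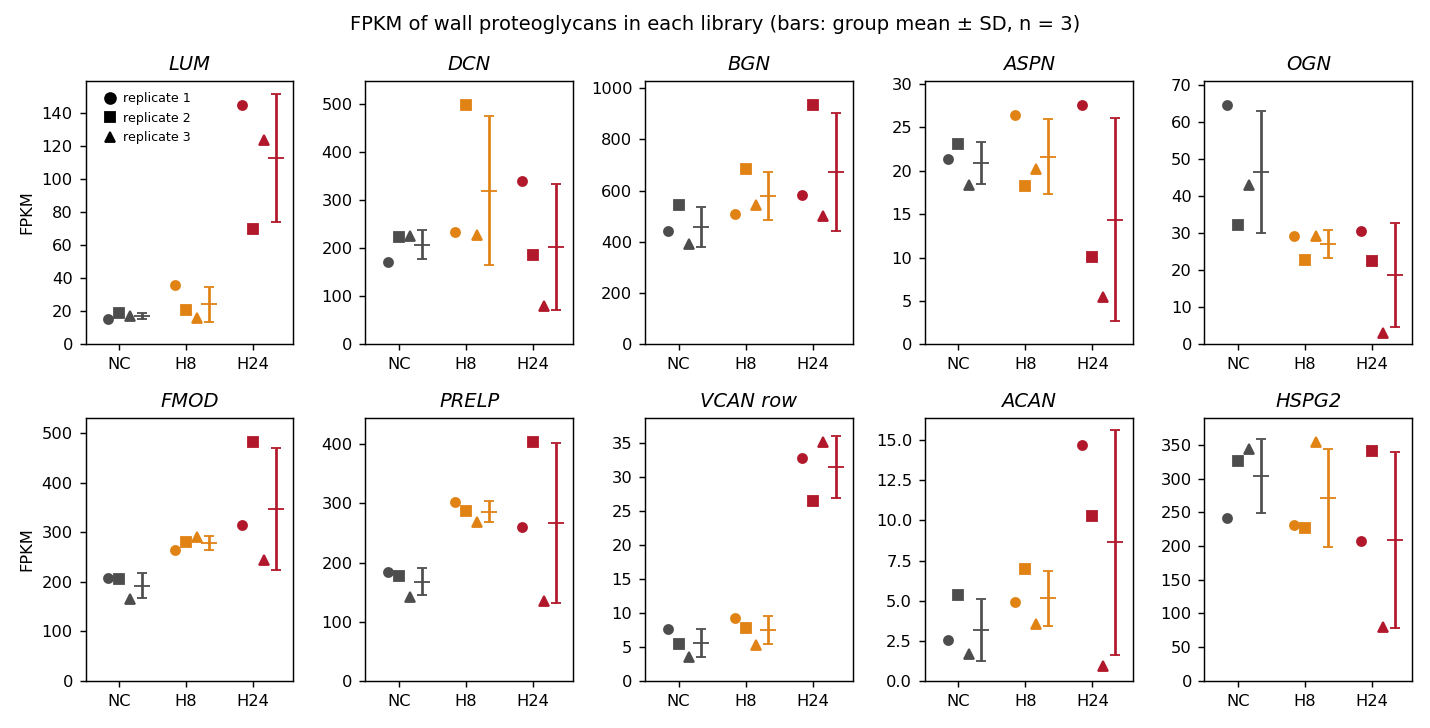
FPKM of each gene (vertical axis, from 0) in the NC, H8 and H24 libraries, with the replicate number as the symbol and a bar for the group mean ± SD (n = 3). LUM and the entry named VCAN are higher in all H24 libraries than in any other library, while OGN is lower in all diet libraries than in any NC library.

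After 24 weeks of high-fat diet, LUM and the VCAN entry rose against NC, 6.43-fold and 5.61-fold. The other 8 genes did not pass the thresholds, a log2 fold change beyond 1 and an unadjusted p under 0.05. These limits are the study's, applied here to edgeR's quasi-likelihood test. Called higher were thus 2 of the 10 genes, beside 9.95% of the 14828 genes tested, and called lower 0 of 10, beside 1.52%. With so many genes called over the whole table, this count is not a result about the 10 genes as a group. The median log2 fold change was 0.59 over the 10 genes and 0.01 over all genes, and 6 of the 10 had a positive sign. By the Benjamini-Hochberg adjusted p under 0.05 with the same fold change, edgeR called 0 of the 10 genes and 0% of the whole table in either direction, where 1634 (11%) were higher and 421 (2.84%) lower at an unadjusted p under 0.05, and DESeq2 called 879 higher and 75 lower, with LUM and VCAN among them. In H24 against H8, the same 2 entries rose (2 of 10, beside 7.22% of 14788 genes called higher), 0 of 10 fell (beside 3.05%), and the medians were -0.12 over the 10 genes and 0.04 over all genes. With the adjusted p, edgeR called 2 genes of the table higher there (0.0135%) and 0% lower, none of them among the 10. Counted by libraries that do not overlap, 2 of 10 were higher in H24 than in H8 (beside 15.5%) and 0 of 10 lower (beside 6.31%).

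After 8 weeks, 0 of the 10 genes passed the thresholds in either direction, beside 5.11% of 14336 genes called higher and 2.27% called lower. By an unadjusted p under 0.05 alone, 2 of 10 were higher (PRELP and FMOD, beside 8.89% of all genes) and 1 was lower (OGN, beside 5.92%), each with a log2 fold change under 1 in size. The median was 0.61 over the 10 genes and 0.01 over all genes, and 8 of the 10 had a positive sign. With each gene's adjusted p under 0.05 and the fold change, edgeR called 2 genes higher (0.014%) and 2 lower (0.014%) in the whole table, and DESeq2 called 445 and 171. None of the 10 genes was among either set.

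**Figure D2:**
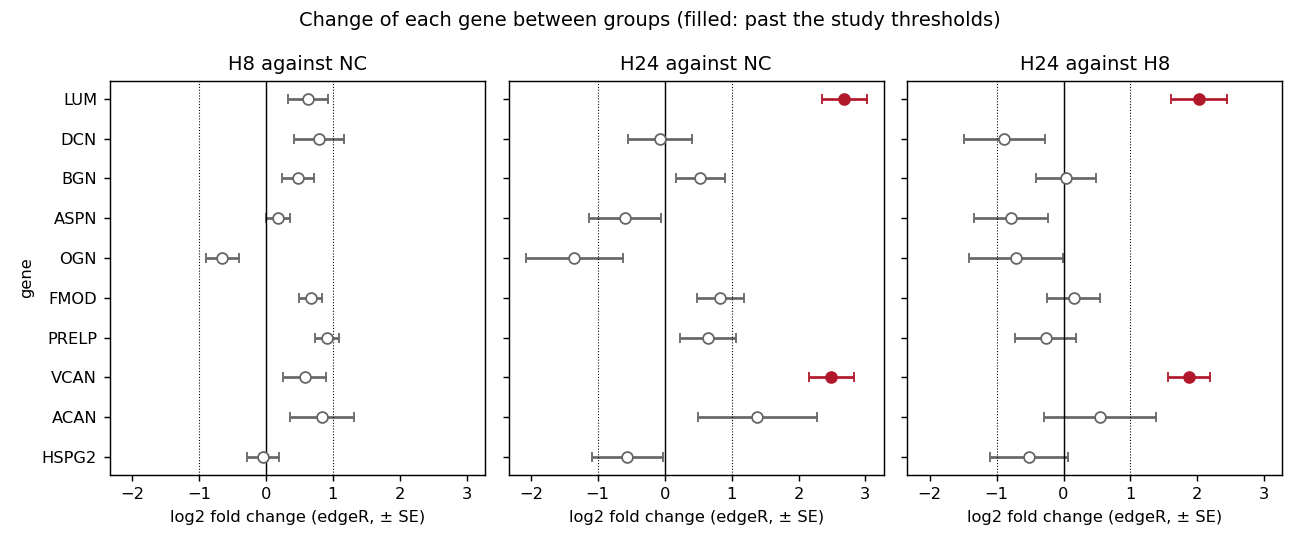
log2 fold change from edgeR (horizontal axis, bars ± SE) of each gene in the 3 comparisons, with dotted lines at the fold threshold of 1 and filled red points for genes past both thresholds. Only LUM and the VCAN entry are filled, in H24 against NC (2.69 and 2.49) and in H24 against H8 (2.02 and 1.88), while H8 against NC has none.

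LUM encodes lumican, a keratan sulfate proteoglycan that binds collagen fibrils. Its level was 15.3, 19.1 and 16.9 FPKM in the NC libraries, 36.0, 20.7 and 15.9 in H8, and 145, 69.6 and 123 in H24. All H24 libraries lay above all others, while H8 replicates 1 and 2 were above the NC range and replicate 3 was within it. In H24 against NC the log2 fold change was 2.69 (SE 0.33, adjusted p = 0.126, edgeR), and without H24 replicate 3 it was 2.61 (SE 0.31, adjusted p = 0.00875). LUM had the 9th smallest p of the 14828 genes in this comparison. H8 against NC gave 0.63 (SE 0.30, adjusted p = 0.378 in edgeR, with H8 and NC overlapping), and in H24 against H8 it was 2.02 (SE 0.42, adjusted p = 0.336). Without H24 replicate 3, the latter was 1.96 (adjusted p = 0.341 in edgeR).

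DCN, the neighbour of LUM on chromosome 5, encodes decorin, a proteoglycan with a single chondroitin or dermatan sulfate chain that binds collagen and the growth factor TGF-beta. Its level was 172, 223 and 226 FPKM in NC, 233, 499 and 227 in H8, and 341, 186 and 80.0 in H24. The H24 libraries spread on both sides of NC, and H8 replicate 2 was far above the other H8 libraries. The log2 fold change was -0.08 (SE 0.48, adjusted p = 0.961 in edgeR) in H24 against NC and 0.31 without H24 replicate 3. H8 against NC gave 0.79 (SE 0.37, adjusted p = 0.372 in edgeR), where the groups did not overlap by a margin of 227 to 226 FPKM, and in H24 against H8 it was -0.88 (SE 0.60, adjusted p = 0.522). Leaving out H8 replicate 3 brought H8 against NC past the thresholds (1.02, adjusted p = 0.281 in edgeR). The fibroblast marker sum was 2925 to 3695 FPKM in NC, 4564 to 7372 in H8 and 3243 to 3666 in H24. In H8, replicate 2 had the highest value. Most of the sum in every library was the collagens COL1A1, COL1A2 and COL3A1, so it is largely a collagen sum. Its part in the level of DCN was not tested.

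BGN encodes biglycan, a close relative of decorin with chondroitin or dermatan sulfate chains. It had 440.0, 542 and 391 FPKM in NC, 508, 684 and 545 in H8, and 581, 934 and 502 in H24. The groups overlapped, and the highest library of each group was replicate 2. The log2 fold change was 0.49 (SE 0.24, adjusted p = 0.390 in edgeR) in H8 against NC, 0.54 (SE 0.37, adjusted p = 0.572) in H24 against NC and 0.04 (SE 0.45, adjusted p = 0.978) in H24 against H8. Without H24 replicate 3, H24 against NC gave 0.71 (adjusted p = 0.407 in edgeR).

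ASPN encodes asporin, which binds collagen, has a run of aspartate residues and is not known to carry sulfated chains. Its level was 21.3, 23.1 and 18.3 FPKM in NC, 26.5, 18.3 and 20.2 in H8, and 27.6, 10.0 and 5.47 in H24. H24 held both the highest and the lowest value of all 9 libraries, with replicate 1 above NC and replicates 2 and 3 below it. The log2 fold change in edgeR was 0.18 (SE 0.18, adjusted p = 0.682) in H8 against NC, -0.59 (SE 0.54, adjusted p = 0.672) in H24 against NC and -0.78 (SE 0.55, adjusted p = 0.536) in H24 against H8. H24 replicate 1 decided the call. Without it, H24 against NC was -1.43 (adjusted p = 0.170 in edgeR) and H24 against H8 was -1.63 (adjusted p = 0.328), both past the thresholds, whereas without H24 replicate 3 they were -0.20 and -0.40.

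OGN encodes osteoglycin, a small leucine-rich protein known from bone and from the media of arteries. In NC it had 64.7, 32.3 and 43.0 FPKM, in H8 29.2, 22.7 and 29.1, and in H24 30.5, 22.4 and 3.02. All 6 diet libraries were below all 3 NC libraries, by a narrow margin at the top, and H24 replicate 3 was far below the rest. Against NC, H8 had a log2 fold change of -0.65 (SE 0.24, adjusted p = 0.285 in edgeR). H24 against NC gave -1.35 (SE 0.73, adjusted p = 0.472 in edgeR) and, without H24 replicate 3, -0.84 (SE 0.31, adjusted p = 0.345). In H24 against H8 the libraries overlapped and the log2 fold change was -0.70 (SE 0.70, adjusted p = 0.661 in edgeR). OGN was the only gene of the 10 whose groups did not overlap in the lower direction, in H24 against NC (1 of 10, beside 7.8% of all genes) and in H8 against NC (1 of 10, beside 15.9%). The smooth muscle marker sum was also lowest in H24 replicate 3, and its part in the level of OGN was not tested.

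FMOD encodes fibromodulin, a keratan sulfate proteoglycan that binds collagen at sites shared with lumican. Its level was 207, 206 and 164 FPKM in NC, 264, 281 and 290.1 in H8, and 315, 483 and 244 in H24. All 6 diet libraries were above all NC libraries, and the H8 libraries lay close together. Against NC, H8 had a log2 fold change of 0.67 (SE 0.18, adjusted p = 0.206 in edgeR). H24 against NC gave 0.83 (SE 0.35, adjusted p = 0.351 in edgeR), with an unadjusted p under 0.05 but a fold change under the threshold, and without H24 replicate 3 it was 1.04 (SE 0.26, adjusted p = 0.128), past the thresholds. In H24 against H8 it was 0.15 (SE 0.39, adjusted p = 0.882 in edgeR).

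PRELP encodes prolargin, which binds collagen and, through its basic end, heparan sulfate, and its gene is the neighbour of FMOD on chromosome 9. It had 185, 177 and 141 FPKM in NC, 303, 288 and 268 in H8, and 261, 404 and 135 in H24. The H8 libraries were all above NC, as were H24 replicates 1 and 2, but H24 replicate 3 was below the lowest NC library. PRELP had the smallest p of the 10 genes in H8 against NC, with a log2 fold change of 0.91 (SE 0.18, adjusted p = 0.170 in edgeR) that was under the fold threshold. H24 against NC gave 0.65 (SE 0.42, adjusted p = 0.548 in edgeR) and, without H24 replicate 3, 0.97 (SE 0.27, adjusted p = 0.168). H24 against H8 gave -0.27 (SE 0.45, adjusted p = 0.813 in edgeR). Counted by libraries that do not overlap, 3 of the 10 genes (PRELP, FMOD and, narrowly, DCN) were higher in H8 than in NC, beside 6.91% of all genes, and 3 of 10 (LUM, VCAN and FMOD) were higher in H24 than in NC, beside 12.8%.

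The VCAN entry holds versican, a large chondroitin sulfate proteoglycan of the intima that binds hyaluronan, together with XRCC4. Its level was 7.61, 5.44 and 3.51 FPKM in NC, 9.32, 7.76 and 5.26 in H8, and 32.7, 26.4 and 35.2 in H24. The H24 libraries were close together and far above all others, while H8 and NC overlapped. In H24 against NC the log2 fold change was 2.49 (SE 0.34, adjusted p = 0.129, edgeR), and without H24 replicate 3 it was 2.40 (SE 0.32, adjusted p = 0.0134). H8 against NC gave 0.58 (SE 0.33, adjusted p = 0.455 in edgeR). H24 against H8 gave 1.88 (SE 0.31, adjusted p = 0.314 in edgeR), and 1.80 (adjusted p = 0.235) without H24 replicate 3. How much of this rise belongs to versican was not tested.

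ACAN had 2.54, 5.38 and 1.66 FPKM in NC, 4.94, 6.97 and 3.57 in H8, and 14.7, 10.3 and 0.933 in H24. H24 replicates 1 and 2 were the highest of all libraries and H24 replicate 3 the lowest. The log2 fold change in edgeR was 0.84 (SE 0.48, adjusted p = 0.459) in H8 against NC, 1.38 (SE 0.89, adjusted p = 0.548) in H24 against NC and 0.54 (SE 0.84, adjusted p = 0.792) in H24 against H8. H24 replicate 3 decided the call. Without it, H24 against NC was 1.92 (SE 0.47, adjusted p = 0.120 in edgeR) and H24 against H8 was 1.07 (SE 0.35, adjusted p = 0.398), both past the thresholds. Leaving out NC replicate 2 also brought H8 against NC past them (1.48, adjusted p = 0.428 in edgeR). Of the cartilage markers, COL10A1, MATN1 and SNORC were at 0 in all 9 libraries, and COL2A1 was at most 0.190 FPKM. Of the same list, COMP, which arteries also express, was 13.8 to 122 FPKM over the 9 libraries, and COL11A1 was 0.380 to 2.46 FPKM.

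HSPG2 encodes perlecan, the large basement membrane proteoglycan. It had 242, 327 and 343 FPKM in NC, 232, 226 and 355 in H8, and 207, 340.4 and 79.4 in H24. The 3 groups overlapped, and H24 replicate 3 was far below all other libraries. The log2 fold change in edgeR was -0.04 (SE 0.24, adjusted p = 0.958) in H8 against NC, -0.56 (SE 0.53, adjusted p = 0.688) in H24 against NC and -0.52 (SE 0.58, adjusted p = 0.700) in H24 against H8. Without H24 replicate 3, H24 against NC was -0.17 (adjusted p = 0.918 in edgeR).

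**Figure D3:**
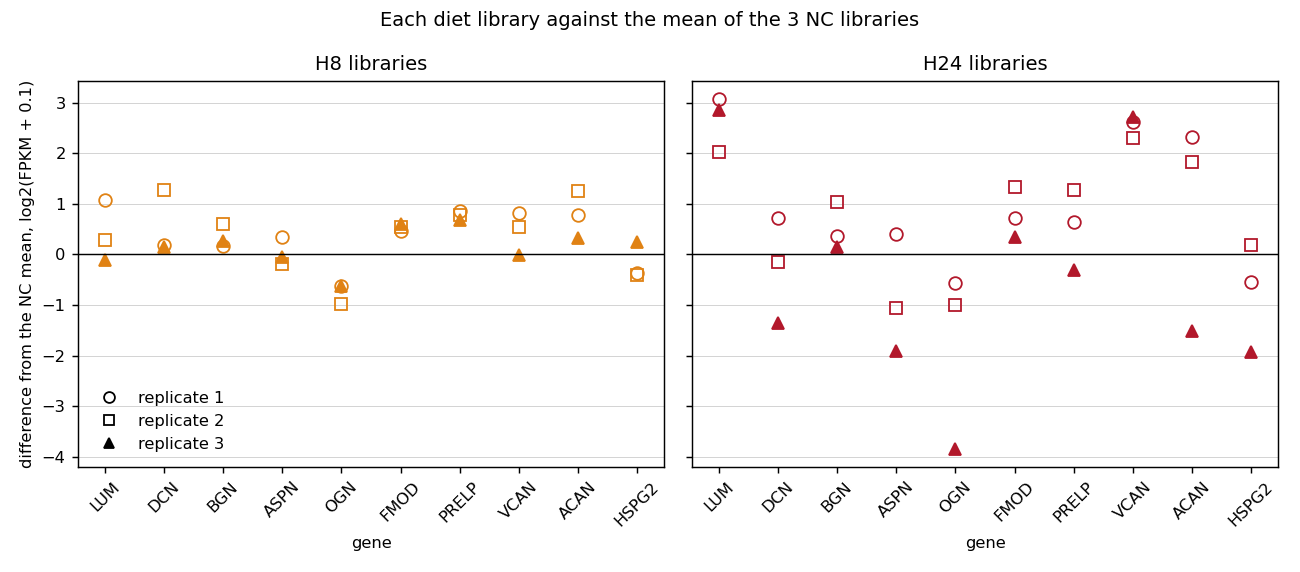
Difference of each H8 library (left) and each H24 library (right) from the mean of the 3 NC libraries, on the log2(FPKM + 0.1) scale, for each gene, with the replicate as the symbol. H24 replicate 3 (filled triangles) is the lowest H24 library in all genes but LUM and the VCAN entry, at -3.85 in OGN, -1.92 in HSPG2 and -1.91 in ASPN beside 2.85 in LUM and 2.72 in VCAN.

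The 3 H24 libraries all lay above the NC mean in LUM, VCAN, BGN and FMOD and all below it in OGN, and they lay on both sides of it in DCN, ASPN, PRELP, ACAN and HSPG2. On the log2(FPKM + 0.1) scale, H24 replicate 3 differed from the NC mean by 2.85 in LUM and by 2.72 in VCAN, where replicates 1 and 2 had 3.08 and 2.03 in LUM and 2.61 and 2.31 in VCAN. In DCN the same 3 libraries had 0.73, -0.15 and -1.36, and in ACAN 2.33, 1.82 and -1.51. H24 replicate 3 was the library with the lowest smooth muscle sum and the highest leukocyte sum. The part of this in the genes that were low in it was not tested.

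The 10 genes together summed to 1350 to 1561 FPKM in NC, 1646 to 2054 in H8, and 1956, 2486 and 1209 in H24. As a share of all FPKM in the library this was 0.507 to 0.568% in NC, 0.606 to 0.693% in H8, and 0.710, 0.911 and 0.388% in H24. The H8 libraries all lay above NC, whereas H24 had libraries on both sides. Within the sum, BGN took 29.0 to 34.7% in NC and 29.7 to 41.6% in H24, the largest share of any of the 10 in every library. LUM took 1.13 to 1.25% in NC, 0.902 to 2.19% in H8, and 7.41, 2.80 and 10.2% in H24. The VCAN entry took 0.260 to 0.561% in NC and 1.06 to 2.91% in H24, while OGN took 2.07 to 4.77% in NC, 1.11 to 1.78% in H8 and 0.250 to 1.56% in H24. HSPG2 took 17.8 to 25.4% in NC and 6.57 to 13.7% in H24.

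**Figure D4:**
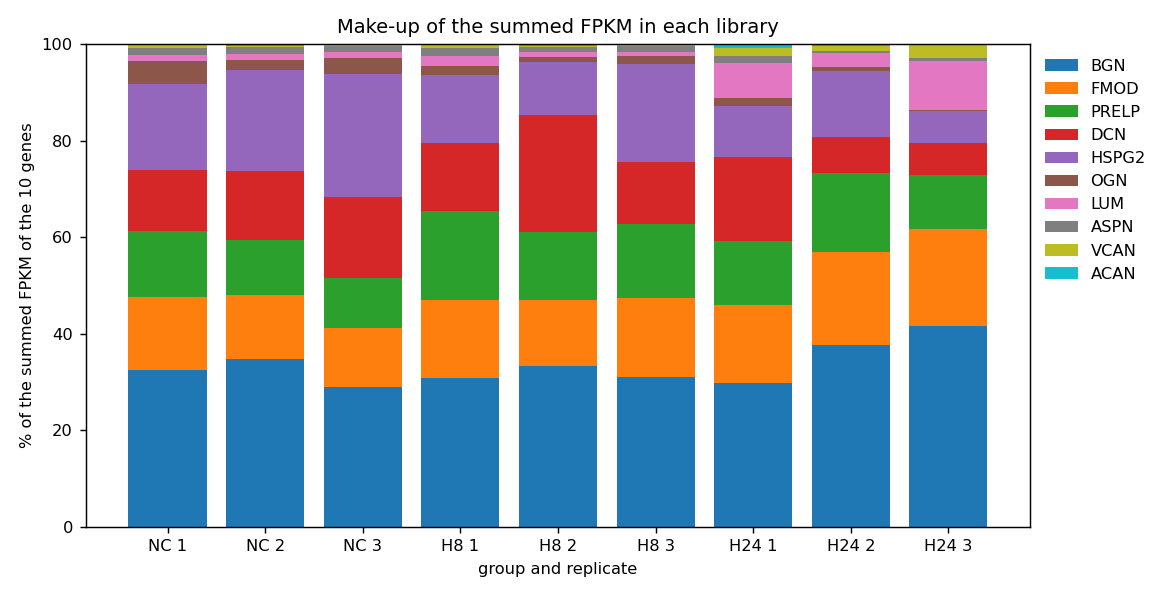
Share of each gene (vertical axis, % of the summed FPKM of the 10 genes) in each of the 9 libraries. BGN is the largest share in every library, and LUM widens from 1.13 to 1.25% in NC to 2.80 to 10.2% in H24.

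Ratios between 2 genes of the same library do not depend on depth or its scaling, but their size depends on the transcript length used for each gene. The ratio to DCN was taken for 8 genes and the ratio to VCAN for ACAN, and each of these 9 ratios was compared in the 3 comparisons by an exact two-sided permutation test. With 3 libraries against 3 the smallest p possible is 0.1. The ratio of LUM to DCN was 0.0886, 0.0856 and 0.0745 in NC, 0.154, 0.0415 and 0.0699 in H8, and 0.425, 0.374 and 1.54 in H24. By FPKM, DCN exceeded LUM in every library but H24 replicate 3. By counts, which are not divided by length, LUM exceeded DCN in all 3 H24 libraries (66665, 21440 and 52269 against 35787, 13074 and 7730). Which of the 2 was higher in H24 thus depends on the measure. The ratio of FPKM was 7.57-fold higher in H24 than in NC (exact p = 0.1, adjusted p = 0.338 over 27 tests) and 4.82-fold without H24 replicate 3, where DCN was low. The ratio of VCAN to DCN was 0.0155 to 0.0441 in NC and 0.0960, 0.142 and 0.440 in H24, which is 7.11-fold higher without overlap, and 4.57-fold without H24 replicate 3. The ratio of OGN to DCN was 0.375, 0.145 and 0.190 in NC, 0.125, 0.0456 and 0.128 in H8, and 0.0894, 0.120 and 0.0378 in H24, below NC in all diet libraries (0.414 of the NC value in H8 and 0.340 in H24, or 0.477 without H24 replicate 3). ASPN to DCN was lower in H24 than in NC by a margin of 0.0809 to 0.0810. In H24 against H8, LUM to DCN (8.18-fold, and 5.21-fold without H24 replicate 3), VCAN to DCN (7.46-fold, and 4.80-fold) and ACAN to VCAN did not overlap. The last was 0.531, 0.898 and 0.679 in H8 and 0.449, 0.390 and 0.0265 in H24, 0.243 of the H8 value with H24 replicate 3 and 0.610 without it. In all, 8 of the 27 comparisons had groups that did not overlap, each at the smallest p and none below an adjusted p of 0.338. A p of 0.1 is to be met in some of 27 comparisons without any difference. All ratios but ACAN to VCAN also share DCN, so the comparisons are not independent. The count was 14 without H24 replicate 1, but smaller groups separate more easily, so the 2 counts cannot be compared.

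**Figure D5:**
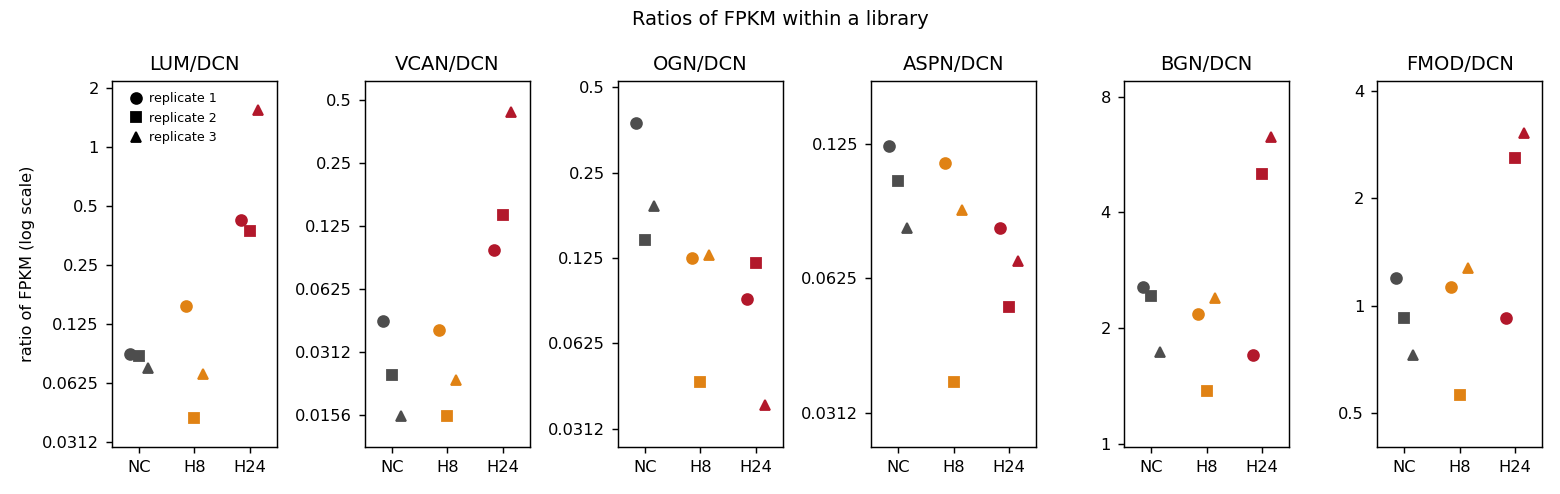
Ratio of the FPKM of 6 genes to that of DCN in each library (vertical axes on log scales), with the replicate as the symbol. LUM/DCN and VCAN/DCN are higher in all H24 libraries than in all others, while BGN/DCN and FMOD/DCN are high in H24 replicates 2 and 3 and not in replicate 1.

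The genes whose pattern over the 9 libraries was most like each of the 10 were taken by Pearson's r of log2(FPKM + 0.1). The candidates were the 9696 named genes with a mean of 1 FPKM or more, leaving out the 10 genes themselves. These r are descriptions over 9 libraries that share their groups. LUM was most like SERPINE2, a serine protease inhibitor of the matrix (r = 0.983), POSTN, the matrix protein periostin (0.979), and S100A4 (0.962). VCAN was most like CHI3L1, a secreted chitinase-like protein (0.981), S100A4, a calcium-binding protein (0.978), and TNFRSF11B, the decoy receptor osteoprotegerin (0.972). For both genes these r were 0.951 to 0.977 without H24 replicate 3. OGN was most like TPM1 (0.987), VCL (0.984) and EFHD1 (0.981), the first a contractile and the second an adhesion protein of smooth muscle, with 0.909, 0.903 and 0.866 without H24 replicate 3. BGN and FMOD shared ATXN1 as the closest gene (0.945 and 0.955), followed by IGFBP6 and PLEKHA4 for BGN and by CCL14 and RF00009 for FMOD. The closest genes were WWTR1, TMTC1 and CHRDL1 for DCN, ZC2HC1A, MECOM and CDC42BPA for ASPN, NFIX, NUCB1 and NID2 for PRELP, PTPN14, IGFBP7 and SETBP1 for ACAN, and PELI3, ADAMTSL1 and SNX21 for HSPG2.

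Other genes of the proteoglycan pathway were counted by the same thresholds, which use an unadjusted p. By the adjusted p with the same fold change, edgeR called none of these related genes in any comparison. Over all genes tested, 9.95% rose and 1.52% fell in H24 against NC, and 5.11% and 2.27% in H8 against NC. In H24 against H8, 7.22% rose and 3.05% fell. The counts of related and marker genes below are to be read beside these shares. Of the other small leucine-rich proteoglycans and their relatives, 2 of 8 rose in H24 against NC (median log2 fold change -0.05): PODNL1 from 3.79 ± 1.35 to 8.85 ± 0.538 FPKM and TSKU from 5.52 ± 0.842 to 24.5 ± 23.0 FPKM, where H24 replicate 3 had 50.7. In H8 against NC 0 of 8 passed (median 0.03), and in H24 against H8 1 of 7 rose, PODNL1 (median -0.06). Of the other proteoglycan core proteins, 2 of 17 rose in H24 against NC (median -0.04): SRGN, serglycin of leukocyte granules, and SDC2, syndecan-2 of the cell surface. SRGN was 15.7 ± 1.79 FPKM in NC and 89.5, 45.4 and 404 in the H24 libraries, the same order as their leukocyte sums. SDC2 did not pass without H24 replicate 3 (0.55). In H8 against NC 0 of 17 passed (median 0.20), and in H24 against H8 SRGN rose and SPOCK1, a testican, fell, from 6.25 ± 1.69 to 2.81 ± 1.56 FPKM (median of the 17 genes -0.41).

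Hyaluronan is the sugar to which versican and aggrecan bind. Of 18 genes of its synthesis, turnover, link proteins and receptors, 3 rose and 1 fell in H8 against NC (median 0.29). TNFAIP6, which transfers heavy chains onto hyaluronan, was 4.04, 3.46 and 2.31 FPKM in NC, 12.7, 33.2 and 7.45 in H8, and 4.06 ± 0.820 (SD, n = 3) in H24. The H8 libraries were all above those of the other groups, with a log2 fold change of 2.63 (adjusted p = 0.187, edgeR) against NC and -2.37 (adjusted p = 0.336) for H24 against H8. CD44, the main hyaluronan receptor, was 23.7 ± 1.94 FPKM in NC and 48.1 ± 19.5 in H8, and rose in H8 against NC (1.19, adjusted p = 0.206, edgeR). In H24 it was 15.5 and 21.1 in replicates 1 and 2 and 62.4 in replicate 3. HAPLN4, a link protein, rose from 0.123 ± 0.0540 FPKM in NC to 0.421 ± 0.259 in H8 (adjusted p = 0.272, edgeR) and 0.986 ± 0.576 in H24 (adjusted p = 0.132, edgeR). Its values in NC were near the filter of 0.1 FPKM. H8 and NC overlapped, with 0.134 FPKM in H8 replicate 1 and 0.175 in NC replicate 3. HAPLN1, a link protein that ties versican and aggrecan to hyaluronan, was 3.41 ± 1.38, 4.45 ± 1.27 and 1.73 ± 0.567 FPKM in NC, H8 and H24 and fell in H24 against H8 (-1.56, adjusted p = 0.336, edgeR). In H24 against NC 3 of 18 rose and 0 fell (median 0.48), and 5 rose without H24 replicate 3. In H24 against H8 3 rose and 2 fell (median 0.08), and 3 fell without this library.

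The enzymes that build the sugar chains were counted by chain type. The linkage and precursor genes had 0 of 13 in H24 against NC (median 0.23) and in H24 against H8 (0.10), and 1 of 13 in H8 against NC (0.15), SLC35B2, a transporter of the sulfate donor (1.12, from 1.24 ± 0.0855 to 2.47 ± 0.620 FPKM). Of chondroitin and dermatan sulfate synthesis, 1 of 13 rose in H24 against NC, the sulfotransferase CHST15 (median 0.43), 1 of 13 in H8 against NC, the epimerase DSEL (0.13), and 3 of 13 in H24 against H8, CHST15, CHPF2 and CHST11 (0.42), of which CHST11 did not pass without H24 replicate 3 (0.61). CHST15 was 0.797 to 1.28 FPKM in NC, 0.398 to 0.768 in H8 and 1.77 to 2.91 in H24, and against NC it did not pass without H24 replicate 3 (0.86). Of heparan sulfate synthesis, the chain type of HSPG2, 0 of 13, 0 of 12 and 0 of 12 passed in H24 against NC, H8 against NC and H24 against H8 (medians 0.18, 0.12 and 0.18). Of keratan sulfate synthesis, the chain type of LUM and FMOD, 2 of 4 rose in H24 against NC (median 1.47), the sulfotransferases CHST2 and CHST1. CHST2 was 0.640 to 1.09 FPKM in NC, 1.93 to 7.51 in H8, and 3.35, 5.50 and 29.8 in H24, and it also rose in H8 against NC (1 of 4, median 0.73). CHST1 was 0.148 to 0.211 FPKM in NC and 0.411 to 0.830 in H24, and it was the 1 of 4 that rose in H24 against H8 (median 1.03).

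Of the proteases known to cut proteoglycan core proteins, 3 of 9 rose and 1 fell in H24 against NC (median 0.29), 0 of 8 passed in H8 against NC (0.40), and 2 of 9 rose and 2 fell in H24 against H8 (-0.21). ADAMTS1, which cleaves versican and aggrecan, was 102, 71.9 and 149.9 FPKM in NC, 240.5, 107 and 116 in H8, and 66.4, 41.3 and 12.3 in H24. All H24 libraries were below all others, with a log2 fold change of -1.46 (adjusted p = 0.342, edgeR) against NC and -1.03 without H24 replicate 3. Without H24 replicate 3, MMP14 (1.44 with it and 0.69 without) and MMP12 (3.11 and 1.60) did not pass in H24 against NC and ADAMTS4 did (0.95 and 1.18), where MMP14 and ADAMTS4 were named after their values were seen. MMP3 rose in H24 but was at most 0.826 FPKM in any library. MMP12, an elastase of macrophages, was 0.0635, 0.239 and 0.710 FPKM in NC and 0.253, 1.78 and 6.75 FPKM in H24, so the groups overlapped. It was highest in the library with the highest leukocyte sum, but H24 replicate 2 exceeded replicate 1, whose leukocyte sum was higher. ADAMTS9 fell in H24 against H8, from 13.7 to 17.6 FPKM in H8 to 5.88 to 11.4 FPKM in H24 (adjusted p = 0.341, edgeR), which did not pass without H24 replicate 3.

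Of the enzymes that break down sulfated chains, mostly lysosomal, 7 of 11 rose in H24 against NC (median 1.18), 1 of 10 in H8 against NC (0.30) and 6 of 11 in H24 against H8 (1.17), and none fell. HPSE, the heparanase that cuts heparan sulfate, was 0.126 to 0.227 FPKM in NC, 0.208 to 0.551 in H8, and 2.43, 1.01 and 22.0 in H24. GUSB was 10.8 ± 1.61 FPKM in NC and 32.5, 20.0 and 184 in H24, and GLB1 was 26.9 ± 3.05 in NC and 46.2, 45.4 and 150.2 in H24. Both were highest in H24 replicate 3. Without this library, 3 of the 11 genes rose in H24 against NC (HPSE, GUSB and SGSH, median 0.68) and 1 in H24 against H8. Over these libraries 11 of 12 leukocyte markers rose in H24 against NC with and without H24 replicate 3 (medians 5.01 and 2.86), 7 of 12 in H8 against NC (1.78) and 10 of 11 in H24 against H8 (2.92), of which 3 passed without H24 replicate 3. The part of leukocytes in the levels of these enzymes was not tested.

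Of the remaining marker lists, 0 of 12 smooth muscle markers passed in H24 against NC, where all 12 had a negative sign (median -0.79, and -0.34 without H24 replicate 3). In H8 against NC 0 of 12 passed (0.18), and 1 of 12 fell in H24 against H8 (-0.94). Of the fibroblast markers, 3 of 12 rose in H24 against NC (0.25, and 1 without H24 replicate 3), 4 of 11 in H8 against NC (0.87) and 0 of 12 in H24 against H8 (-0.71). Endothelial markers had 0 of 9 in each comparison (0.12, -0.17 and 0.48 in the same order), with sums of 73.3 to 176 FPKM in NC, 57.0 to 87.8 in H8 and 83.1 to 137 in H24. Adipocyte markers, checked because the extraction text in the labels speaks of fat, summed to 114 to 191 FPKM in NC, 65.6 to 148 in H8 and 73.6 to 121 in H24. Of these, 4 of 9 fell in H8 against NC (-1.03), and 1 of 10 rose and 2 fell in H24 against NC (-0.95). In H24 against H8, 5 of 10 rose and 1 fell (0.75). FABP4 was the largest part of each sum, at 47.9 to 139 FPKM. ADIPOQ was 4.44 to 14.6 FPKM in NC, 0.0789 to 0.106 in H8, and 7.24, 0.0705 and 0.416 in H24. Its log2 fold change in H8 against NC was -6.39 (adjusted p = 0.0206, edgeR). PLIN1 was 3.59 to 16.5 FPKM in NC, 0 to 0.0823 in H8, and 5.58, 0.134 and 0.213 in H24. The part of fat in the levels of the 10 genes was not tested. Of the cartilage markers, 0 of 2, 0 of 3 and 0 of 4 passed in H24 against NC, H8 against NC and H24 against H8 (-0.17, 0.39 and -0.60).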

How the data were processed

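RNA-seq libraries of the abdominal aorta, 9 in 3 groups, were analysed. Reads were aligned by the authors with HISAT to Sscrofa11.1, the pig assembly of the study's methods, and StringTie was used for assembly and quantification. The submitters' processing notes list Bowtie 0.12.2, HISAT2 2.0 and StringTie 1.3.0 together with a mouse build (mm8), while the coordinates of the table are those of the pig. The authors deposited FPKM values and an estimated count per gene and library. How these expected counts were derived is not given in the sources used here. They are whole numbers, used as deposited.

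Counts were tested with edgeR 4.0.16 in R 4.3.3 (TMM, quasi-likelihood, both directions, the libraries of the 2 groups compared, genes whose mean FPKM over these was 0.1 or more), with p-values adjusted over all genes tested by Benjamini-Hochberg. The limits on fold change and p were the study's. Exact permutation tests used scipy 1.17.1. The fit was tested on simulated data with 200 genes changed by a log2 of 2. The thresholds recovered 187 in H24 against NC, 191 in H8 against NC and 182 in H24 against H8. They also called 3.30%, 2.02% and 3.43% of the unchanged genes. With the adjusted p and the fold change, 67, 151 and 44 of the 200 were recovered, so a real change of this size often failed adjustment. Libraries were grouped by their labels and none was left out. Every pair of libraries differed by more than counting error (chi-square per degree of freedom of 182 or more).

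The 10 genes and the lists of related and marker genes were chosen with earlier results of these data known. Of each list of related genes, at most the 4 with the smallest p-values were named, and of the genes most like each of the 10, the closest 3. Listed genes without an entry of their name were not analysed here.

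The alternatives were median-ratio scaling, DESeq2 1.42.0, no filter, an FPKM filter of 1 in place of 0.1, limma 3.58.1 on log2(FPKM + 0.1) and log2(FPKM + 1), all 9 libraries in 1 fit, a replicate block, summed counts for entries that share a name, omission of each replicate in turn, and, for the ratios, a pseudocount of 0.1 and counts in place of FPKM.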

Additional observations from a re-analysis of the deposited data

Results flagged for a closer look

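For LUM and the VCAN entry, the log2 fold change against NC was larger in H24 than in H8. The log2 fold changes against NC were 0.63 in H8 and 2.69 in H24 for LUM, and 0.58 and 2.49 for VCAN. Since both use the same NC libraries, the difference is H24 against H8 itself, 2.02 for LUM (adjusted p = 0.336) and 1.88 for VCAN (adjusted p = 0.314) in edgeR's quasi-likelihood test, and all 3 H24 libraries were above all 3 H8 libraries in both. Neither passed after adjustment in edgeR. The range of the adjusted p over the alternatives was 0.000503 to 0.663 for LUM and 3.57e-06 to 0.663 for VCAN, the lowest from DESeq2.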

How the results depend on the processing

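LUM and the VCAN entry were called higher in H24 against NC and in H24 against H8 under all 15 alternatives of each comparison, with log2 fold changes of 2.49 to 2.92 and 2.23 to 2.76 against NC and of 1.77 to 2.39 and 1.65 to 2.09 against H8. Their adjusted p against NC ranged from 8.48e-13 and 1.86e-09 in DESeq2 to 0.465 for both. In H8 against NC the adjusted p of PRELP ranged from 0.000770 (DESeq2) to 0.555 and that of FMOD from 0.0187 (DESeq2) to 0.593. Of the 30 fold changes of the 10 genes, 429 values kept direction and side of the threshold, 7 newly passed it, 0 lost it and 14 changed sign. Leaving out a replicate gave 2 to 4 genes higher in H24 against NC (4 without H24 replicate 3). It gave 0 to 1 lower there (1 without H24 replicate 1). In H8 against NC it gave 0 to 1 higher (1 without NC replicate 2 or H8 replicate 3). In H24 against H8 it gave 0 to 1 lower (1 without H24 replicate 1). The ratios that did not overlap were 8 to 14, a count that smaller groups can raise because they separate more easily.

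Leaving out a replicate changed a sign for DCN in H24 against NC (-0.63 to 0.31), HSPG2 in H8 against NC (-0.24 to 0.059) and, in H24 against H8, for BGN (-0.34 to 0.25), FMOD (-0.22 to 0.36), PRELP (-0.77 to 0.056) and ACAN (-0.022 to 1.07), none of which was called with all libraries. The cause was not tested.

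Over all genes, leaving out a replicate gave 946 to 1795 higher and 137 to 456 lower in H24 against NC, 569 to 796 and 251 to 448 in H8 against NC, and 547 to 1407 and 248 to 684 in H24 against H8. The FPKM filter of 1, which tests fewer genes, gave 141 lower in H24 against NC and 440 higher and 178 lower in H8 against NC. limma on log2(FPKM + 1) gave 714 and 141, 202 and 141, and 517 and 177 in H24 against NC, H8 against NC and H24 against H8, and limma on log2(FPKM + 0.1) gave 454 and 505 in H8 against NC. By the adjusted p and the fold change, DESeq2 called 447 higher and 203 lower in H24 against H8, where edgeR called 2 and 0.

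The replicate numbers gave no sign of pairing. Across genes, the deviations of same-numbered libraries from their group means correlated at -0.080 to 0.093. With the numbers as a replicate block, 1114 genes were higher and 250 lower in H24 against NC, 639 and 311 in H8 against NC, and 800 and 475 in H24 against H8, the calls among the 10 genes did not change, and BGN (-0.0063) and ACAN (-0.060) changed sign in H24 against H8.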
